A study of Rattus norvegicus with 48 samples.

Results

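The 10 genes described here, which astrocytes use to take up glutamate, buffer potassium, move water and couple to each other, were followed through RNA-seq of 48 rat cortical cell cultures. The 10 genes were picked by symbol from the 30211 genes of the deposited expression table, and each of the 10 was measured well enough to enter the test that 15890 genes entered. They were Slc1a2 and Slc1a3 (the glutamate transporters GLT-1 and GLAST), Glul (glutamine synthetase), Kcnj10 (the potassium channel Kir4.1), Aqp4 (the water channel aquaporin-4), Gja1 and Gjb6 (the gap junction proteins connexin 43 and connexin 30), Aldh1l1 (a folate enzyme widely used as an astrocyte marker), Ntsr2 (a neurotensin receptor) and Slco1c1 (the thyroid hormone transporter OATP1C1).

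The cultures came from 18-day Sprague-Dawley rat fetuses and were used after 21 days in vitro. There were 16 groups of 3 libraries each. Control cultures had no agent. Tat cultures received the HIV-1 protein Tat (residues 1 to 86) at 6 ng/mL for 48 h, Cocaine cultures received 25 µM cocaine for 24 h, and Tat-Cocaine cultures received both. The other groups received 1 of 4 compounds, either by itself, together with Tat, or together with both Tat and cocaine: 4OI (4-octyl itaconate, a cell-permeable itaconate ester) at 250 µM, Amlexanox (an inhibitor of the kinases TBK1 and IKKε) at 25 µM, Tazemetostat (an EZH2 inhibitor) at 3 µM and Senicapoc (a KCa3.1 channel blocker) at 1 µM. The labels do not say whether the Control cultures received the compounds' solvent, nor whether the 3 libraries of a group came from separate cell preparations, so that p-values measure the spread between these libraries.

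Astrocytes clear glutamate from the synapse through GLT-1 and GLAST and turn it into glutamine with glutamine synthetase. Kir4.1 and aquaporin-4 sit together on astrocyte endfeet and carry potassium and water, and connexins 43 and 30 join astrocytes into a coupled network. GLT-1 and Kir4.1 are known to rise as astrocytes mature.

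The labels call the cells neurons, but several astrocyte transcripts were abundant. The median over the 48 libraries was 4144 CPM (reads scaled to the total of their library) for Gfap, 2310 CPM for Glul, 1940 CPM for Slc1a3 and 1672 CPM for Aqp4, each at or above the 99.7th percentile of the genes tested. S100b, Aldoc and Gja1 stood at the 99.3rd, 99.1st and 97.6th percentile. Other astrocyte markers were in the middle range: Slc1a2 at 57.2 CPM (75.1st percentile), Sox9 at 53.3 CPM (73.2nd) and Aldh1l1 at 26.7 CPM (55.2nd). Depth lay between 17.5 and 29.1 M reads (median 22.4 M), and 1 read stood for 0.0334 to 0.0583 CPM. The library Cocaine 3 stood apart with 9293 CPM of the myelin gene Mbp, against 8.92 to 613 CPM in the others. Within their groups, Senicapoc 2 held low values and Amlexanox 1 high values of several of the 10 genes, as given below. In bulk RNA, fewer astrocytes and less transcript per astrocyte cannot be told apart.

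The 10 genes ran at very different precision. The median coefficient of variation within a group was 8.34% for Aqp4, 8.71% for Slc1a3, 12.6% for Glul, 12.9% for Aldh1l1, 13.8% for Slc1a2 and 14.2% for Gja1. It was 31.8% for Ntsr2, 37.3% for Kcnj10, 66.8% for Slco1c1 and 74.6% for Gjb6. Gjb6 lay between 0 and 2.27 CPM and was at 0 in 2 libraries (Tat-4OI 2 and Tat-Cocaine-Tazemetostat 1). Slc1a2 lay between 30.8 and 124 CPM and Slc1a3 between 1169 and 2455 CPM, and the spans were 189 to 732 CPM for Gja1 and 8.66 to 196 CPM for Ntsr2. When the 16 groups were put in order of their means, neighbouring groups overlapped in 15 of 15 steps for Glul, Kcnj10, Gja1, Gjb6, Aldh1l1 and Slco1c1, and in 14 of 15 steps for Slc1a2, Slc1a3, Aqp4 and Ntsr2.

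**Figure D1:**
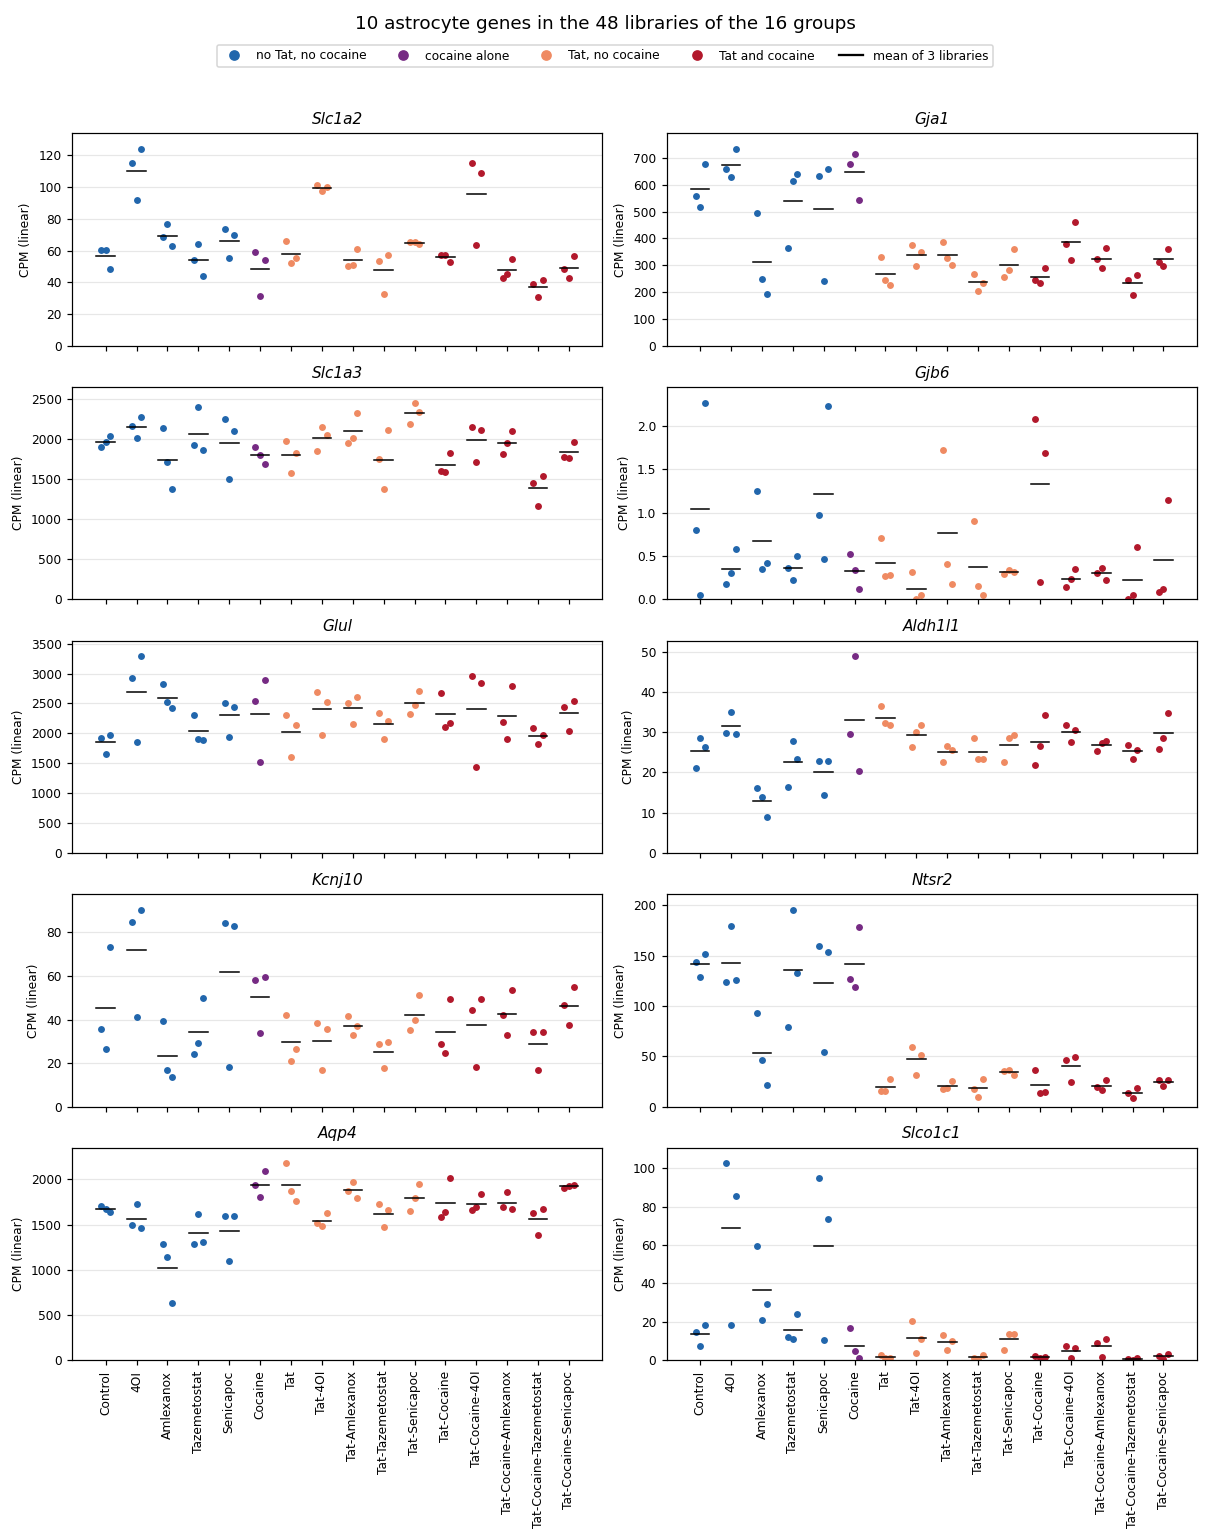
CPM (linear axis from 0) of each of the 10 genes in the 48 libraries, 3 points per group with the mean as a bar, coloured by Tat and cocaine. Ntsr2 lay at 8.66 to 59.4 CPM in the 30 libraries with Tat, and Slc1a2 had its 3 highest group means in the groups with 4OI.

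The genes that moved most with Tat were Gja1, Ntsr2 and Slco1c1. RefSeq promoter windows (250 bases before to 50 bases after the start, build GRCr8) were at hand for 9 of the 10 genes, all but Slco1c1. Those of Gja1 and Ntsr2 are shown because both genes fell with Tat and had the most similar pattern across the groups. Capitals mark every match, on either strand, to 7 searched motifs. The STAT site was spelled TTCNNNGAA and the AP-1 site TGANTCA. The core of the antioxidant response element was TGACNNNGC. A TATA box was read as TATAAA. The NFI half-site was TTGGC, and the sequence CCAAT was taken as the box of that name. The NF-kB consensus was searched as well.
Gja1, chr20:36302314-36302613, plus strand: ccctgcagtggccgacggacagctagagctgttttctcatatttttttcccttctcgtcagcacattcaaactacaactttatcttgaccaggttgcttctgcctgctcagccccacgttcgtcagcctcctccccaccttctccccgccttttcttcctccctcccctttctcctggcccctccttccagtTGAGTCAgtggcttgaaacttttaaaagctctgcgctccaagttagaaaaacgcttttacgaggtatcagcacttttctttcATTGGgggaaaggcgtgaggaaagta
Ntsr2, chr6:45152845-45153144, plus strand: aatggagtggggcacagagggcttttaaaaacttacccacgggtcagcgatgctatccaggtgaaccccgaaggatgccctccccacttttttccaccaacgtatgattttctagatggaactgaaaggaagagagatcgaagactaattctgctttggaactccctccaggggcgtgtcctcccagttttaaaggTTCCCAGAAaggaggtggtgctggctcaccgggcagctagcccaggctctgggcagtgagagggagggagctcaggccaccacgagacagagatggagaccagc
The Gja1 window held 1 AP-1 site and 1 CCAAT box, and the Ntsr2 window held 1 STAT site. Of all 33469 promoter windows, 7.33% held the AP-1 motif, 37.5% the CCAAT box, 8.87% the STAT motif, 45.8% the NFI half-site, 14.2% the TATA box, 12.1% the antioxidant response core and 5.02% the NF-kB consensus. The NFI half-site and the CCAAT box, read on the other strand, share 4 letters and can overlap. The matches are descriptions of sequence, and the windows of the 2 genes shared no motif from this set.

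Tat lowered the coupling gene Gja1, the receptor gene Ntsr2 and the transporter gene Slco1c1. On the deposited scale no change passed the test for the 3 genes of glutamate uptake and glutamine synthesis or for Aqp4. Ntsr2 was at 143, 129 and 152 CPM in the 3 Control libraries and at 15.9, 15.7 and 27.4 CPM in the 3 Tat libraries. The groups did not overlap, and the fitted change was −2.86 on the log2 scale (SE 0.43, limma adjusted p = 8.29e-06), a 7.25-fold lower level. Gja1 was at 557, 516 and 678 CPM in Control and at 331, 244 and 225 CPM with Tat. Connexin 43 transcript thus stood 2.20-fold lower without overlap (log2 change −1.14, SE 0.27, adjusted p = 0.00258). Slco1c1 was at 14.9, 7.5 and 18.3 CPM in Control and at 2.43, 0.828 and 0.993 CPM with Tat, again without overlap (log2 change −2.88, SE 0.82, adjusted p = 0.0100). So 3 of the 10 genes fell and 0 rose, where 6.70% of all genes tested fell and 14.6% rose. The median log2 change was −0.31 over the 10 genes and 0.01 over all genes. After quantile normalization 4 of the 10 genes fell, these 3 among them, and 0 rose, where 1552 of all 15890 genes fell. Slco1c1 lost its call without Tat replicate 2 (log2 change −2.66, adjusted p = 0.0560).

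Of the other 7 genes, none passed the test on the deposited scale. Slc1a2 was at 60.4, 60.4 and 48.1 CPM in Control and at 66.2, 51.9 and 55.5 CPM with Tat. Slc1a3 was at 1900, 1970 and 2041 CPM in Control and at 1977, 1581 and 1833 CPM with Tat, and Glul at 1925, 1661 and 1981 CPM against 2310, 1611 and 2145 CPM. The libraries of the 2 groups overlapped for all 3 genes of glutamate uptake and glutamine synthesis. The 95% intervals of the log2 change were −0.37 to 0.45 for Slc1a2, −0.45 to 0.17 for Slc1a3 and −0.34 to 0.56 for Glul. Aqp4 (1700, 1676 and 1639 CPM in Control, 2178, 1872 and 1765 CPM with Tat) and Aldh1l1 (21.0, 28.6 and 26.2 CPM against 36.4, 32.2 and 31.7 CPM) lay higher with Tat without overlap, at adjusted p = 0.355 and 0.177. Kcnj10 ran from 26.6 to 73.2 CPM in Control and from 20.7 to 42 CPM with Tat, and its interval (−1.50 to 0.45) was too wide to place it.

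Measured against Slc1a3 in the same library, Gja1 stood at 26.2 to 33.2% of the Slc1a3 CPM in Control and at 12.3 to 16.8% with Tat. Ntsr2 stood at 6.55 to 7.54% in Control and at 0.805 to 1.496% with Tat. Both ratios fell without overlap, so that Gja1 and Ntsr2 changed unequally to the astrocyte transporter Slc1a3. Among markers of other cells, 3 of 14 microglial genes were higher and 1 lower with Tat, and their summed level was 2565 to 4641 CPM against 2019 to 3703 CPM in Control. For neurons 0 of 15 marker genes passed (summed level 1909 to 3474 CPM with Tat against 3449 to 5312 CPM), and 2 of 6 proliferation genes were higher (140 to 309 CPM against 76.0 to 189 CPM). None of these markers was at 0 in all libraries, and their part in the changes of the 10 genes was not tested.

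With a compound in the medium, in libraries that the comparison of Tat with Control did not use, Ntsr2 fell with Tat in each of the 4 compound backgrounds. In the fit without a replicate block, Ntsr2 was the 1 gene of the 10 that passed in all 4. With the replicate number as a block, Slco1c1 passed in all 4 as well (limma, adjusted p = 0.00037 to 0.0184). Ntsr2 went from 123, 180 and 126 CPM with 4OI to 59.4, 31.3 and 51.4 CPM with Tat-4OI (log2 change −1.61, adjusted p = 0.0223). It went from 78.8, 196 and 133 CPM with Tazemetostat to 17.9, 9.84 and 27.2 CPM with Tat-Tazemetostat (−2.88, adjusted p = 1.4e-05). It went from 160, 54.0 and 154 CPM with Senicapoc to 34.8, 36.1 and 31.7 CPM with Tat-Senicapoc (−1.67, adjusted p = 0.00708). Only with Amlexanox did the libraries overlap, as 93.3, 46.05 and 21.6 CPM went to 17.4, 18.1 and 25.2 CPM (−1.17, adjusted p = 0.0318). Without 1 library the call was lost for Tat-4OI without 4OI replicate 1, 2 or 3 or Tat-4OI replicate 2 or 3 (adjusted p = 0.0502 to 0.176), for Tat-Senicapoc without Senicapoc replicate 1 (0.0629), and for Tat-Amlexanox without Amlexanox replicate 1 or 2 or Tat-Amlexanox replicate 1 or 2 (0.0661 to 0.239). Without Amlexanox replicate 1 that change shrank to −0.65.

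Gja1 went from 658, 630 and 732 CPM with 4OI to 374, 296 and 350 CPM with Tat-4OI (log2 change −0.99, adjusted p = 0.0271) and from 364, 615 and 641 CPM with Tazemetostat to 269, 206 and 234 CPM with Tat-Tazemetostat (−1.16, adjusted p = 0.00332). Both falls were without overlap, and the first lost its call without 4OI replicate 1 or 3 or Tat-4OI replicate 2 or 3 (adjusted p = 0.0677 to 0.159). With Senicapoc Gja1 went from 632, 242 and 658 CPM to 257, 283 and 362 CPM, which did not pass (−0.64, adjusted p = 0.104). Senicapoc replicate 2 was the low library, and without it the change was −1.12 (adjusted p = 0.00248). With Amlexanox Gja1 was at 495, 249 and 192 CPM before Tat and at 387, 325 and 300 CPM with it, and the interval of the change was −0.33 to 0.78. Slco1c1 fell from 12.1, 11.05 and 24.2 CPM with Tazemetostat to 1.06, 0.535 and 2.54 CPM with Tat-Tazemetostat (−3.17, adjusted p = 0.00685), a call lost without Tat-Tazemetostat replicate 2 (−2.82, adjusted p = 0.0590). Without a replicate block, it did not pass with 4OI (103, 18.1 and 85.6 CPM against 20.3, 3.76 and 10.9 CPM with Tat-4OI, −2.45, adjusted p = 0.0735), with Senicapoc (94.7, 10.3 and 73.5 CPM against 5.06, 13.7 and 13.6 CPM, −2.03, adjusted p = 0.0855) or with Amlexanox (59.7, 21.1 and 29.1 CPM against 13.2, 5.34 and 9.90 CPM, −1.84, adjusted p = 0.0689). With the replicate number as a block Slco1c1 passed with 4OI (adjusted p = 0.0114), Senicapoc (0.0184) and Amlexanox (0.0180). Of these, only the Amlexanox libraries were paired by number.

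Counted over the genes, Tat-4OI against 4OI gave 2 lower of 10 (2.10% of all genes), Tat-Tazemetostat against Tazemetostat 3 lower (5.63%) and Tat-Senicapoc against Senicapoc 1 lower (5.15%). Tat-Amlexanox against Amlexanox gave 1 lower (17% of all genes) and 2 higher (22.6%), neither a larger share than that of all genes. The 2 that rose were Aqp4, from 1280, 1139 and 626 CPM to 1871, 1969 and 1796 CPM (log2 change 0.95, SE 0.16, adjusted p = 6.25e-05), and Aldh1l1, from 16.2, 13.8 and 8.97 CPM to 22.6, 26.6 and 25.6 CPM (0.95, SE 0.22, adjusted p = 0.00148). Each rose without overlap from the lowest mean of the 16 groups, that of Amlexanox alone. In the same comparison 7 of 7 ependymal markers were higher (summed level 198 to 338 CPM against 34.9 to 105 CPM), 5 of 6 proliferation markers were higher, 4 of 14 microglial markers were higher and 1 lower, and 6 of 15 neuronal markers were lower, none of them at 0 in all libraries. Their part in the changes of Aqp4 and Aldh1l1 was not tested. Same-numbered libraries of Amlexanox and Tat-Amlexanox deviated together, and with the replicate number as a block Kcnj10 (0.81, adjusted p = 0.0478) and Slco1c1 (−1.84, adjusted p = 0.0180) passed as well. When that blocked fit was limited to the 2 groups, Ntsr2 did not (adjusted p = 0.0785). In Tat-4OI against 4OI, whose libraries were not paired by number, Kcnj10 went the other way. It went from 85.0, 41.1 and 90.4 CPM to 38.5, 16.6 and 35.6 CPM. With the block over all groups this fall passed (−1.25, limma adjusted p = 0.0151, and 0.129 without the block).

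Averaged over the 5 backgrounds (15 libraries with Tat against 15 without), the response was −2.04 for Ntsr2 (SE 0.19, adjusted p = 1.03e-10), −0.74 for Gja1 (SE 0.12, adjusted p = 5.27e-06) and −2.48 for Slco1c1 (SE 0.37, adjusted p = 8.56e-07) on the log2 scale. The genes that rose were Aldh1l1 by 0.37 (SE 0.10, adjusted p = 0.00165) and Aqp4 by 0.34 (SE 0.07, adjusted p = 0.000138), of which Aqp4 did not pass after quantile normalization (0.08, adjusted p = 0.386). Of the single backgrounds, both passed only with Amlexanox (0.95 each). In the others Aldh1l1 changed by −0.10 (4OI) to 0.425 (Senicapoc), at limma adjusted p = 0.177 to 0.868. Aqp4 changed there by −0.01 (4OI) to 0.35 (Senicapoc), at adjusted p = 0.135 to 0.977. That made 3 lower of 10 beside 26.7% of all genes and 2 higher beside 29.9%, so that in this pooled comparison the shares were near those of all genes. Of the markers of other cells, 10 of 15 neuronal genes were lower, 8 of 14 microglial genes higher and 1 lower, and 5 of 6 proliferation genes higher in this average, and their part in it was not tested. The averages of the remaining genes did not pass: Slc1a3 at 0.01 (95% interval −0.12 to 0.15), Glul at 0.02 (−0.19 to 0.22), Slc1a2 at −0.13 (−0.32 to 0.05), Kcnj10 at −0.33 (−0.77 to 0.10) and Gjb6 at −0.40 (−0.85 to 0.05). Slc1a3 and Glul lay near 0 on the deposited scale, but after quantile normalization both were lower with Tat (−0.33, adjusted p = 0.00021, and −0.36, adjusted p = 0.00668). Kcnj10 passed without Senicapoc replicate 2 (−0.48, adjusted p = 0.0348) and Gjb6 without Control replicate 2 (−0.52, adjusted p = 0.0372). The share of lower genes among all calls was 31.5% for Tat against Control and 47.1% for the average, and it was 45.4% and 59.2% after quantile normalization.

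**Figure D2:**
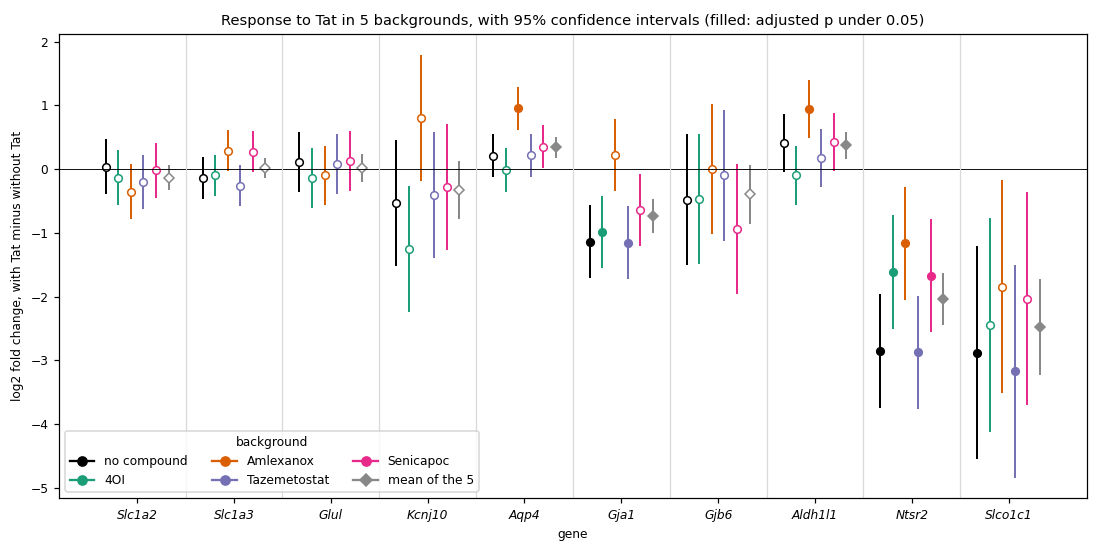
Fitted log2 fold change with Tat minus without Tat (points) and its 95% confidence interval (lines) for each gene, in cultures without a compound and with each of 4 compounds, and averaged over the 5 (diamonds); filled symbols passed an adjusted p of 0.05. Ntsr2 and Slco1c1 lay below 0 in all 5 backgrounds, Gja1 in 4 of the 5, and the intervals of Slc1a3 and Glul spanned 0 in each.

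The differences between these Tat responses were tested as interactions, and without a replicate block none of the 10 genes passed for any of the 4 compounds (limma, adjusted p under 0.05). Over all genes 0.497% passed for 4OI, 1.84% for Amlexanox, 0% for Tazemetostat and 0% for Senicapoc. At an unadjusted p under 0.05 it was 1 of 10 for 4OI beside 11.9% of all genes, 3 of 10 for Amlexanox beside 18.2%, 0 of 10 for Tazemetostat beside 1.71% and 0 of 10 for Senicapoc beside 4.80%. The Tat response was weaker with Amlexanox than without a compound by 1.36 for Gja1 (SE 0.39, adjusted p = 0.0535), by 1.69 for Ntsr2 (SE 0.61, adjusted p = 0.120) and, for Aqp4, more positive by 0.74 (SE 0.23, adjusted p = 0.0676). The numbers paired the Amlexanox and Tat-Amlexanox libraries but not those of Tat and Control, which this difference also uses. With a replicate block common to all groups the difference passed for Gja1 (adjusted p = 0.0295, and 0.218 with only the compared groups in that fit). Gja1 also passed with median ratio rescaling (0.0466), quantile normalization (0.0474) and quality weights (0.0165), and Aqp4 with quality weights (0.0446). Without Amlexanox replicate 1 the values for Gja1, Ntsr2 and Aqp4 were 1.75 (adjusted p = 0.00344), 2.21 (0.0191) and 0.94 (0.00766), and Gja1 also passed without Control replicate 1 (1.39, adjusted p = 0.0454). With 4OI the response of Ntsr2 was smaller by 1.25 (95% interval 0.01 to 2.48, adjusted p = 0.416).

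Other genes of the same pathways were counted in lists. Of 26 tested genes for potassium, water and volume control, 9 were lower and 1 higher with Tat, and the median log2 change was −0.44. Mlc1, an astrocyte membrane protein tied to volume regulation, fell from 1670 ± 304 to 710 ± 135 CPM (SD, n = 3 each, log2 change −1.23), and Kcnj16, a partner of Kir4.1, fell from 2.84 ± 1.95 to 0.420 ± 0.170 CPM (−1.73). Kcnj2, another inward rectifier, rose from 4.82 ± 0.26 to 15.04 ± 3.46 CPM (1.52). Of 21 genes of glutamate handling, 7 were lower and 1 higher (median −0.36). The glutamine transporter gene Slc38a3 fell from 81.9 ± 38.3 to 27.3 ± 1.6 CPM (−1.47) and the GABA transaminase gene Abat from 285 ± 34 to 140 ± 28 CPM (−1.03), while the neutral amino acid transporter gene Slc1a5 rose from 16.5 ± 12.5 to 57.0 ± 25.2 CPM (1.87). Of 12 other connexins and pannexins 0 fell and 1 rose, the weakly expressed Gja5 (0.580 ± 0.305 to 2.51 ± 0.14 CPM), which is no larger a share than that of all genes.

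Of 38 other astrocyte genes, Mlc1 again among them, 12 were lower and 1 higher with Tat (median −0.45). Tril, a Toll-like receptor accessory protein, fell from 251 ± 58 to 60.9 ± 15.5 CPM and S100b from 1594 ± 686 to 480 ± 132 CPM, whereas Clu (clusterin) rose from 2412 ± 419 to 7482 ± 1551 CPM. Of the 34 reactive astrocyte genes 14 were higher, where 14.6% of all genes were, 4 were lower and 16 did not pass (median 0.46). Lcn2 (lipocalin-2) rose from 148 ± 148 to 11590 ± 2742 CPM and Steap4, a metalloreductase, from 1.62 ± 1.13 to 183 ± 122 CPM, while Fbln5 and Emp1 fell by 1.44 and 1.13 on the log2 scale. Among 21 regulators of astrocyte identity 3 rose and 1 fell (3 and 4 after quantile normalization), close to the shares of all genes given above. Stat3, a transcription factor of the cytokine response, went from 282 ± 49 to 621 ± 84 CPM, Zfp36l1 from 306 ± 50 to 513 ± 52 CPM and Lhx2 from 93.4 ± 6.6 to 68.2 ± 3.2 CPM.

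**Figure D3:**
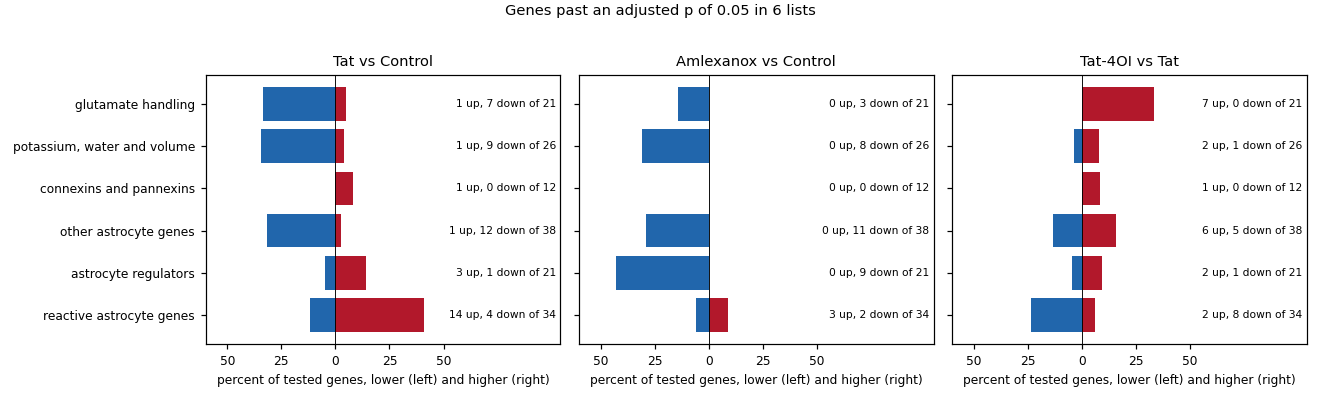
Percent of the tested genes of 6 lists (the 10 genes themselves are not in them) that were lower (blue, to the left) or higher (red, to the right) at an adjusted p under 0.05, for Tat against Control, Amlexanox against Control and Tat-4OI against Tat. With Tat the glutamate, potassium and other astrocyte lists lay mostly to the left and the reactive list to the right, and with Tat-4OI against Tat the glutamate list had 7 higher and 0 lower of 21.

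With cocaine, none of the 10 genes passed the test in the fit without a replicate block. Cocaine against Control called 0 of 10, beside 0.201% of all genes (limma). At an unadjusted p under 0.05 it was 0 of 10 beside 12.6%. Tat-Cocaine against Tat called 0 of 10 beside 0.0189% (unadjusted, 0 of 10 beside 8.16%). Ntsr2 was at 127, 119 and 179 CPM with Cocaine and Gja1 at 678, 716 and 544 CPM, both overlapping with Control. Slco1c1 was at 16.7, 4.59 and 1.01 CPM with Cocaine, and the lowest of these is the library with high Mbp. Tat-Cocaine against Control, which shares the Control libraries with the Tat comparison, gave 3 lower genes of 10, beside 6.30% of all genes. Ntsr2 was at 35.9, 13.9 and 14.2 CPM (log2 change −2.84, adjusted p = 1.49e-05), Gja1 at 245, 235 and 289 CPM (−1.18, adjusted p = 0.00263) and Slco1c1 at 2.09, 1.06 and 1.41 CPM (−2.74, adjusted p = 0.0198). Slco1c1 lost this call without Control replicate 1 or 3 or Tat-Cocaine replicate 2 or 3 (adjusted p = 0.0565 to 0.0769). Averaged over the 5 Tat backgrounds with and without cocaine, again 0 of 10 passed, beside 4.55% of all genes (unadjusted, 3 of 10 beside 20.1%), and the intervals of the log2 change were −0.22 to 0.28 for Gja1, −0.61 to 0.18 for Ntsr2 and −1.71 to −0.22 for Slco1c1. With the replicate number as a block Slco1c1 was lower in this average (−0.97, limma adjusted p = 0.0309, and 0.119 without the block).

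4OI raised Slc1a2, the transcript of GLT-1, with or without Tat and cocaine. Slc1a2 was at 115, 91.8 and 124 CPM with 4OI, against 60.4, 60.4 and 48.1 CPM in Control. All 3 libraries lay above the Control libraries, 1.94-fold on the fitted scale (log2 change 0.96, SE 0.20, adjusted p = 0.00374). It was the 1 gene of 10 that rose, beside 2.47% of all genes. The numbers of these libraries paired them, and in a blocked fit to the 2 groups alone the adjusted p was 0.0513 for Slc1a2, which lost its call, and 0.0434 for Slco1c1, which passed. With Tat, Slc1a2 was at 101, 97.6 and 99.8 CPM in Tat-4OI against 66.2, 51.9 and 55.5 CPM in Tat (0.79, SE 0.20, adjusted p = 0.00779), a call lost without Tat replicate 2 (0.71, adjusted p = 0.0556). With Tat and cocaine it was at 115, 63.7 and 109 CPM against 57.1, 57.1 and 52.7 CPM (0.73, adjusted p = 0.0225), still without overlap. Without any 1 of these libraries but Tat-Cocaine-4OI replicate 2, that call was lost (0.58 to 0.75, adjusted p = 0.0547 to 0.131). The Tat response of Slc1a2 did not differ detectably with 4OI (difference −0.17, 95% interval −0.76 to 0.41).

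The receptor gene Ntsr2 and the transporter gene Slco1c1 were higher in Tat-4OI than in Tat, which made 3 of 10 beside 6.10% of all genes. They were genes that Tat had lowered, and both comparisons share the Tat libraries. Ntsr2 was at 59.4, 31.3 and 51.4 CPM in Tat-4OI against 15.9, 15.7 and 27.4 CPM in Tat (log2 change 1.24, SE 0.43, adjusted p = 0.0447), still below each Control library. Slco1c1 was at 20.3, 3.76 and 10.9 CPM against 2.43, 0.828 and 0.993 CPM (2.48, SE 0.82, adjusted p = 0.0346). Neither group overlapped with Tat, but Ntsr2 lost its call without Tat replicate 1 or 2 or Tat-4OI replicate 1 or 3 (adjusted p = 0.124 to 0.185) and Slco1c1 without Tat replicate 2 or 3 or Tat-4OI replicate 1 or 3 (0.0694 to 0.191). Gja1, at 374, 296 and 350 CPM in Tat-4OI, overlapped with Tat. Tat-Cocaine-4OI against Tat-Cocaine gave 1 higher of 10, Slc1a2, beside 4.07% of all genes.

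Without Tat, 4OI left Gja1 (658, 630 and 732 CPM) and Ntsr2 (123, 180 and 126 CPM) overlapping with Control. Slco1c1 was at 103, 18.1 and 85.6 CPM, against 7.5 to 18.3 CPM in Control, with replicate 2 inside the Control range (log2 difference 2.05, adjusted p = 0.223). These libraries were paired by number, and each 4OI library lay above its same-numbered Control library (14.9, 7.5 and 18.3 CPM). With the replicate block over all groups the adjusted p was 0.0519. The glutamate-handling list gave 5 higher and 0 lower of 21 with 4OI alone and 7 higher and 0 lower with Tat-4OI against Tat. The 5, named here after their values were seen, were the cystine-glutamate exchanger gene Slc7a11 (log2 change 3.85), the glutamine transporter gene Slc38a3 (1.84), the neutral amino acid transporter gene Slc1a4 (1.61), Pc, which encodes pyruvate carboxylase (0.65), and Glud1, which encodes glutamate dehydrogenase (0.41). Of 14 microglial markers, 4 were lower and 0 higher in Tat-4OI than in Tat (summed level 1116 to 2477 CPM against 2565 to 4641 CPM), and 4 of 6 proliferation markers were lower (36.3 to 151 CPM against 140 to 309 CPM). In Tat-Cocaine-4OI 5 of 14 microglial markers were lower than in Tat-Cocaine (770.5 to 2299 CPM against 2085 to 3456 CPM). None of these markers was at 0 in all libraries, and their part in the values of the 10 genes was not tested.

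Amlexanox alone lowered 4 of the 10 genes, beside 7.60% of all genes, namely Aqp4 and Aldh1l1 along with Gja1 and Ntsr2. Aqp4 was at 1280, 1139 and 626 CPM against 1700, 1676 and 1639 CPM in Control (log2 change −0.78, SE 0.16, adjusted p = 0.00182). Aldh1l1 was at 16.2, 13.8 and 8.97 CPM against 21.0, 28.6 and 26.2 CPM (−0.96, SE 0.22, adjusted p = 0.00439). Both were lower in all 3 libraries, as were Gja1 (495, 249 and 192 CPM, −1.01, adjusted p = 0.0139) and Ntsr2 (93.3, 46.05 and 21.6 CPM, −1.63, adjusted p = 0.0125). The spread within the group was wide, from the highest library (replicate 1) to the lowest (replicate 3). Without replicate 3 all 4 calls were lost (Aqp4 −0.47, Gja1 −0.72, Aldh1l1 −0.72 and Ntsr2 −1.10, adjusted p = 0.0729 to 0.230), Gja1 was also lost without Amlexanox replicate 2 (0.0635), and Gja1 and Ntsr2 without Control replicate 3 (0.104 and 0.0733). In a fit to the 6 libraries alone 0 of 10 passed, beside 0 of all 15012 genes tested there.

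With Amlexanox Slc1a2 was at 68.4, 77.0 and 62.6 CPM and Glul at 2829, 2526 and 2418 CPM, all above Control but not past the threshold without a replicate block (adjusted p = 0.362 and 0.161), and Slco1c1 at 59.7, 21.1 and 29.1 CPM lay above Control as well (0.301). With the replicate block Glul was higher (limma, adjusted p = 0.033) and Kcnj10 lower (0.047), though these libraries were not paired by number. In the lists around the 10 genes, 11 of 38 other astrocyte genes, 9 of 21 regulators and 8 of 26 potassium and water genes were lower and 0 higher. All 7 tested ependymal markers were also lower (summed level 34.9 to 105 CPM against 161 to 441 CPM in Control, median log2 change −1.95), none of them at 0 in all libraries, and their part in the changes of the 10 genes was not tested. With Tat present, Amlexanox left 0 of 10 genes past the threshold of limma, beside 0.837% of all genes (unadjusted, 1 of 10 beside 12.5%). These libraries were paired by number, and with the replicate block 1 gene passed, Slco1c1 (13.2, 5.34 and 9.90 CPM against 2.43, 0.828 and 0.993 CPM, log2 change 2.39, adjusted p = 0.0275, and 0.172 without the block). With Tat and cocaine it was 0 of 10 as well, beside 0.925% (unadjusted, 0 of 10 beside 17.8%).

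**Figure D4:**
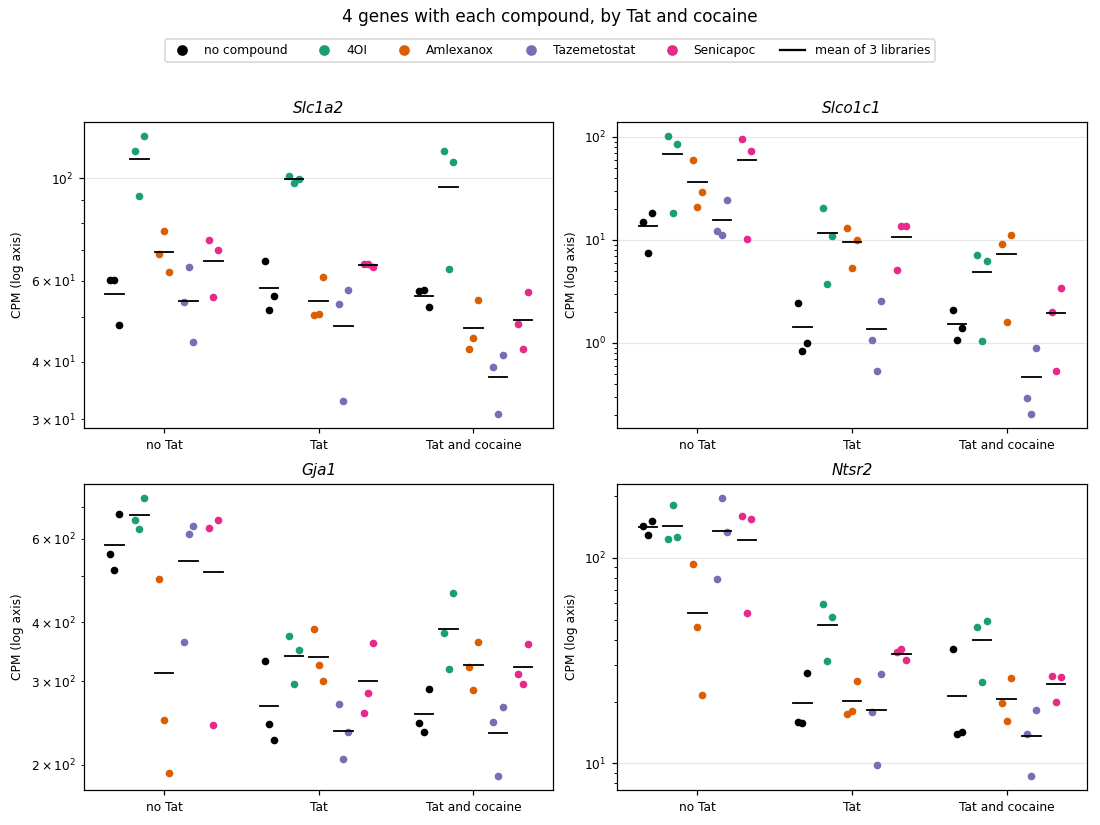
CPM (log axis) of Slc1a2, Slco1c1, Gja1 and Ntsr2 in cultures without Tat, with Tat, and with Tat and cocaine, each without a compound and with each of 4 compounds, 3 points per group with the mean as a bar. The 4OI libraries of Slc1a2 lay above those without a compound in all 3 settings, and without Tat the Amlexanox libraries of Gja1 and Ntsr2 lay below Control.

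Tazemetostat alone called 0 of 10, beside 0% of all genes (limma; at an unadjusted p under 0.05, 0 of 10 beside 3.62%). Tat-Tazemetostat against Tat also called 0 of 10, beside 0% (unadjusted, 0 of 10 beside 5.36%). With Tat and cocaine, Tazemetostat lowered 1 gene of 10, beside 13.4% of all genes, which is no larger a share than that of all genes. This was Slc1a2, at 38.99, 30.8 and 41.3 CPM against 57.1, 57.1 and 52.7 CPM (log2 change −0.59, SE 0.20, adjusted p = 0.0311). All 10 log2 changes were below 0 there, with a median of −0.27 against 0.02 over all genes, and Slc1a3 at 1453, 1169 and 1544 CPM lay under its 1606, 1591 and 1824 CPM (adjusted p = 0.158). Markers of other cells moved in the same libraries: 12 of 15 neuronal markers were lower (summed level 1308 to 2019 CPM against 2876 to 3730 CPM), 7 of 14 microglial markers higher (4728 to 7261 CPM against 2085 to 3456 CPM), 7 of 7 ependymal markers higher (329 to 566 CPM against 89.15 to 212 CPM), 4 of 6 proliferation markers higher and 4 of 10 oligodendrocyte markers lower. None of these markers was at 0 in all libraries, and their part in the values of Slc1a2 was not tested. Slc1a2 lost its call without Tat-Cocaine replicate 1 or 2 or Tat-Cocaine-Tazemetostat replicate 1 or 2 (adjusted p = 0.0517 to 0.162).

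Senicapoc alone called 0 of 10, beside 0% of all genes (limma; at an unadjusted p under 0.05, 1 of 10 beside 8.67%). Slco1c1 was at 94.7, 10.3 and 73.5 CPM and Kcnj10 at 84.5, 18.2 and 83.1 CPM, with replicate 2 far below the other two in both. Tat-Senicapoc against Tat called 0 of 10, beside 0.409% (unadjusted, 2 of 10 beside 18.3%), and Tat-Cocaine-Senicapoc against Tat-Cocaine 0 of 10, beside 0.0441% (unadjusted, 0 of 10 beside 15.5%). The Tat-Senicapoc libraries of Slc1a3 (2189, 2455 and 2342 CPM) and of Slco1c1 (5.06, 13.7 and 13.6 CPM) were all above those of Tat, at adjusted p = 0.195 and 0.129. With the replicate number as a block Slco1c1 passed (log2 change 2.53, limma adjusted p = 0.0236), though these libraries were not paired by number.

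**Figure D5:**
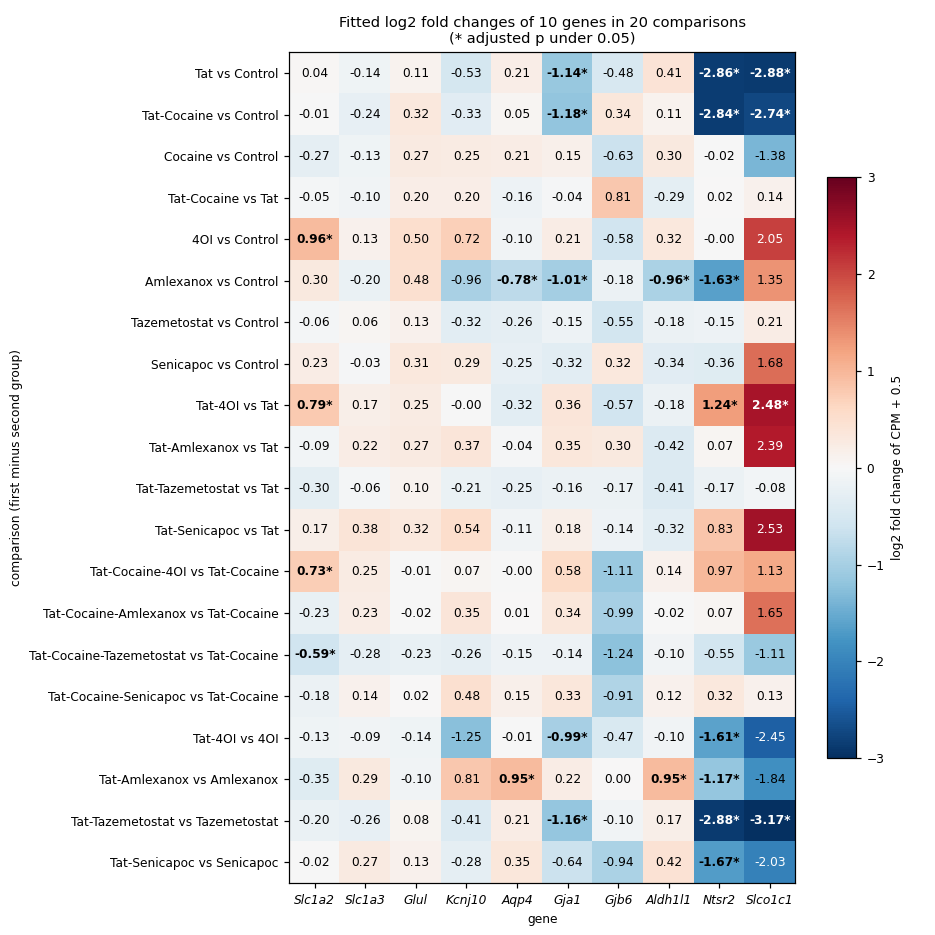
Fitted log2 fold change (colour and number) of the 10 genes (columns) in the 20 comparisons of pairs of groups (rows), with an asterisk where the adjusted p was under 0.05. The Tat comparisons show the falls of Ntsr2, Gja1 and Slco1c1, and the 4OI comparisons the rises of Slc1a2, while Slc1a3, Glul, Kcnj10 and Gjb6 carry no asterisk.

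Across the 16 group means the 10 genes fell into unlike patterns, given here as a description, since groups share agents and no p applies. Gja1 and Ntsr2 ran closest together (Pearson r = 0.93 on log2 means), followed by Aqp4 and Aldh1l1 (0.87), while Gja1 and Aqp4 were unrelated (0.01). Among 14201 other genes the nearest to Ntsr2 were Col11a2 (0.99, 16.4 CPM in Control and 3.46 CPM with Tat) and Slc4a4, an astrocyte bicarbonate transporter (0.97, 84.2 and 37.7 CPM). The nearest to Gja1 were Suclg2 (0.97) and Arhgef26 (0.97), to Slco1c1 Tmem100 (0.96) and Oxr1 (0.95), and to Slc1a2 Cask (0.95) and Hspd1 (0.92). Aqp4 ran closest to Antxr1 (0.93) and Epb41l5 (0.90), Aldh1l1 to Zfp703 (0.92) and Sardh (0.91), Slc1a3 to Slc15a2 (0.87) and Acvr1 (0.84), Glul to Ccdc88a (0.87) and Rab11fip3 (0.80), Kcnj10 to Txnrd2 and Abca9 (0.86 each) and Gjb6 to Lama2 (0.83) and Adamts12 (0.79).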

How the data were processed

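Poly(A) RNA of 48 cultures, 3 in each of 16 groups, was sequenced from strand-specific libraries. Per the submitters' processing notes, the authors trimmed reads (Trim Galore 0.4.5), aligned them with STAR 2.7.2, handled alignments with SAMtools 1.5 and counted reads per gene with featureCounts of Subread 1.5.3. The study's methods differ from these notes in the SAMtools version and in the rat genome build, so no positions were taken from the files. The deposited signal is CPM after the authors' TMM normalization in edgeR, and a library sums to between 930399 and 1046890. Deposited columns with the authors' fold changes and p-values were not used.

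Groups and replicate numbers came from the sample labels. In a library, 85.0 to 87.3% of the values came within 0.02 of a whole read and the rest did not, so count models were not run. Values were analysed as log2(CPM + 0.5) with limma 3.58.1 in R 4.3.3 (trended eBayes, all 48 libraries, 1 mean per group, no covariate), for 15890 genes at 0.5 CPM or more in at least 3 libraries. Fold changes are on that scale, which understates those of low genes such as Gjb6. P-values were adjusted by Benjamini-Hochberg within each of 26 contrasts with a threshold of 0.05, and intervals are 95%. Of 3 against 3 libraries an exact permutation test cannot pass 0.05 and none was run. The fit was tested on simulated data. The genes named beside the 10 were, of each list, at most 2 with the largest rise and 2 with the largest fall with Tat, and the 2 nearest genes by correlation of group means. The 10 genes and the lists were chosen with earlier results of these data known. Alternatives were another pseudocount, filter, scaling, model or set of libraries, and leaving out each replicate. Same-numbered libraries deviated together (each correlation over 0.1) in 6 of 20 comparisons of pairs of groups: Tat-Cocaine, 4OI, Tazemetostat and Senicapoc with Control, and Tat-Amlexanox with Tat and with Amlexanox. Values of the blocked fit stand beside those results where a call changed.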

Additional observations from a re-analysis of the deposited data

How the results depend on the processing

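Of 1023 recomputed settings of 43 fold changes of the 10 genes, 921 kept direction and side of the threshold, 70 lost the call, 17 gained it and 15 turned direction. Of 523 recomputed counts of genes called, 465 stayed within 1.5 times the reported count. The cause was not tested for any change. Brackets below give the genes called among all genes in the same fit. With sample quality weights the count was 4 for 4OI against Control (2198 of 15890) and 2 for Senicapoc against Control (1785). It was 1 for Tat-Senicapoc against Tat (276), 5 for Tat-Cocaine-4OI against Tat-Cocaine (4358) and 4 for Tat-4OI against 4OI (4020). For Tat-Amlexanox against Amlexanox it was 5 (7976), for Tat-Senicapoc against Senicapoc 7 (7096) and for cocaine averaged 3 (2204). The difference of the Tat response gave 1 with 4OI (1302) and 2 with Amlexanox (794). With only the compared groups in the fit it was 0 for Amlexanox against Control (0 of 15012) and 1 for Tat-4OI against Tat (1134 of 15020). Against Tat-Cocaine it was 0 for Tat-Cocaine-4OI (113 of 14992) and 2 for Tat-Cocaine-Tazemetostat (3783 of 15030). Without a filter it was 1 for Tat-4OI against Tat (2106 of 24049). With the 7 groups of the paper only it was 0 for Tat-Cocaine-4OI against Tat-Cocaine (559 of 15609). With a pseudocount of 0.1 and with quantile normalization it was 2 for Tat-Cocaine-Tazemetostat against Tat-Cocaine (4501 and 4555 of 15890). With median ratio rescaling and quantile normalization it was 1 for the difference of the Tat response with Amlexanox (356 and 364 of 15890).

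With a replicate block it was 1 for Tat-Amlexanox against Tat (493 of all 15890 genes) and 1 for Tat-Senicapoc against Tat (646). It was 2 for Tat-Cocaine-Tazemetostat against Tat-Cocaine (5786), 4 for Tat-4OI against 4OI (1426) and 5 for Tat-Amlexanox against Amlexanox (7264). For Tat-Senicapoc against Senicapoc it was 2 (3354), for the difference of the Tat response with Amlexanox 1 (693) and for cocaine averaged 1 (1150). With the replicate block and the compared groups only it was 0 for Amlexanox against Control (0 of 15012) and 1 for Tat-Amlexanox against Tat (529 of 15012). Against Tat-Cocaine it was 0 for Tat-Cocaine-4OI (38 of 14992) and 0 for Tat-Cocaine-Tazemetostat (0 of 15030). For Tat-4OI against 4OI it was 4 (958 of 14903), for Tat-Tazemetostat against Tazemetostat 1 (446 of 15044) and for cocaine averaged 3 (1851 of 15652). In the 14 comparisons not named as paired, at least 1 of the correlations of same-numbered libraries was not over 0.1. That rule covers all genes together, and single genes could still follow the number. Slco1c1 was lowest in replicate 2 in every group but Cocaine and Tat-Senicapoc. Among the paired comparisons, the blocked fit over all groups changed no call other than those given beside the results.

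Leaving out 1 replicate at a time gave 0 to 4 genes for Amlexanox against Control, 0 to 3 for Tat-4OI against Tat, 0 to 1 for Tat-Cocaine-4OI and 0 to 2 for Tat-Cocaine-Tazemetostat against Tat-Cocaine, 0 to 3 for Tat-4OI against 4OI, 0 to 3 for Tat-Senicapoc against Senicapoc, 0 to 3 for the difference of the Tat response with Amlexanox and 0 to 2 for cocaine averaged. The averaged Tat change of Slc1a3 turned to −0.0057 with median ratio rescaling, −0.33 with quantile normalization and −0.027 with quality weights, and ran from −0.022 to 0.046 without 1 replicate. That of Glul turned to −0.0024 with median ratio rescaling and −0.36 with quantile normalization, and ran from −0.032 to 0.0499 without 1 replicate. Gjb6, at 0 to 2.27 CPM where 1 read is worth 0.0334 to 0.0583 CPM, rests on few reads per library.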
